A study of Mus musculus with 12 samples.

Results

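The comparison described here set tSema4B against vector in brown adipocytes that had been treated with norepinephrine (NE). Its members are the 6 NE-treated libraries among the 12 of the study, 3 of vector NE and 3 of tSema4B NE, taken by their labels, and the 11998 of 48321 listed genes that had a normalized read count of at least 10 in at least 3 of the 12 libraries. The cells were wildtype C57BL/6J brown preadipocytes from the interscapular depot, taken per the methods from 1 newborn mouse and immortalized with the SV40 large T antigen. They were stably transduced with lentivirus carrying either the empty pLEX vector or pLEX with tSema4B, a Flag-tagged truncated mouse Sema4B that is soluble like the ectodomain released when ADAM17 cleaves the protein, and selected with puromycin. Both lines were differentiated for 8 days, started with isobutylmethylxanthine, rosiglitazone, dexamethasone, insulin and triiodothyronine and continued with insulin and triiodothyronine alone, and were then kept for 6 h in serum-free medium with albumin and 2 μM NE. The 6 libraries without NE entered the filter and the fit, and are otherwise used where values with and without NE are set side by side. Each construct is represented by 1 line, and the 3 libraries of each group are described as technical replicates. The p-values thus measure the spread between these libraries and do not cover separate transductions or, possibly, separate cultures.

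Brown adipocytes store triglyceride in many small droplets and burn the fatty acids released from them in mitochondria that are uncoupled by UCP1. NE binds β-adrenergic receptors, raises cAMP and activates protein kinase A, which starts lipolysis and turns on a set of fast transcriptional responses, among them Ucp1. The semaphorins form a large family of guidance cues, found on cell surfaces or shed from them, whose receptors are the plexins and, for some members, neuropilins. The question put by this comparison is how the transcriptome of the adipocytes differed under NE when a soluble form of Sema4B was made by the cells.

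Reads counted on genes lay between 4739777 and 5409583 in the vector NE libraries and between 2307190 and 3144946 in the tSema4B NE libraries, so every vector library was deeper than every tSema4B library. Reads of mitochondrially encoded genes made up 15.6% to 16.7% of the counted reads in vector NE and 6.91% to 7.68% in tSema4B NE, and reads assigned to Sema4b made up 2.04% to 2.57% and 7.01% to 8.88%. Values are normalized counts, that is reads per gene divided by the authors' DESeq2 size factor of the library, and fold changes are on the log2(normalized count + 1) scale, which can understate the change of genes with few reads and need not match the ratio of group means where the libraries of a group lie far apart. Tests were two-sided limma tests with Benjamini-Hochberg adjustment over all 11998 genes. Upregulated and downregulated mean that the adjusted p was no higher than 0.05 and that the log2 fold change reached 1 or -1, and higher or lower by adjusted p means that the first condition alone was met. Counts of genes with a lower or higher mean go by the sign of the log2 fold change. The smallest p of an exact permutation test on 3 and 3 libraries is 0.1, and the adjusted p-values therefore lean on the spread that limma pools over genes.

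Of the 11998 genes, 244 were upregulated (2.03%) and 447 were downregulated (3.73%) in tSema4B NE. The downregulated genes reached farther, with 127 past a log2 fold change of -2 and 30 past -3, against 25 upregulated genes past 2 and 2 past 3. Among the 363 genes with a mean of at least 1000 normalized counts in vector NE, 28 were downregulated and 5 upregulated. Genes that reached this level only in tSema4B NE are not in that set, so its split leans towards downregulated genes. The 3 tSema4B NE values lay wholly above or wholly below the 3 vector NE values for 4525 genes (37.7%), of which 2146 were higher and 2379 lower. By adjusted p alone, 1175 genes were higher (9.79%) and 1342 lower (11.2%). Over all genes tested the median log2 fold change was -0.01. With every library scaled to the same total in place of the authors' size factors, the split moved to 346 upregulated and 362 downregulated genes, with the median of all genes at 0.08. With reads thinned to the depth of the shallowest library, 255 and 439 genes were called.

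**Figure D1:**
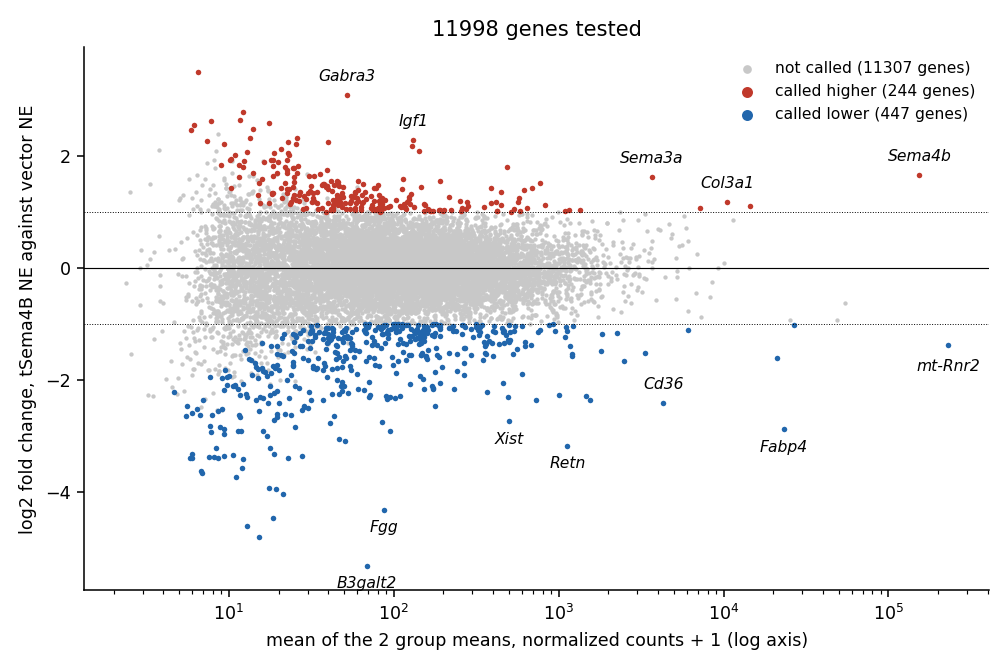
Log2 fold change of tSema4B NE against vector NE (vertical axis) for the 11998 genes tested against the mean of both group means in normalized counts plus 1 (horizontal log axis), 1 point per gene. The 447 genes called lower (blue) reach a log2 fold change of -5.32 at B3galt2 and include abundant genes such as Fabp4 at -2.88, and the 244 called higher (red) include Sema4b at 1.65 among the most abundant.

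Sema4b (Ensembl ENSMUSG00000030539.13; GRCm38 chromosome 7, 80186841 to 80226527), the gene the construct carries, was used to check the labels. It was at 81754, 65472 and 75571 normalized counts in the 3 vector NE libraries and at 208759.6, 223375 and 270694 in the 3 tSema4B NE libraries (log2 fold change 1.65, SE 0.0884, adjusted p = 1.21e-11). The groups did not overlap, with a 3.15-fold ratio of means. Reads from the endogenous gene and from the construct were not told apart. The vector line, which lacks the construct, had a mean of 74266 with NE and 116797 without, while Fabp4 was at 40898 in vector NE. Where these vector reads come from was not tested, so the ratio is only a limited check. The lines also differed in sex-linked genes. Xist, the RNA that coats the inactive X chromosome, was at 899, 881 and 821 in vector NE and at 97.6, 168 and 129 in tSema4B NE (log2 fold change -2.74, SE 0.161, adjusted p = 4.73e-11), while Kdm5d, a Y-linked histone demethylase, was at 53.1, 45 and 44.5 against 75.1, 158 and 124 (log2 fold change 1.25, adjusted p = 0.00431). All 4 Y-linked genes tested had higher values by adjusted p, and Xist was the lower one. Xist and Y-linked genes were thus both detected in each line, in other proportions, where the methods name 1 newborn mouse as the source. Where this difference comes from, and its part in the results below, was not tested.

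The labelled cell type was checked on defining markers. The summed level of 6 adipocyte markers (Adipoq, Fabp4, Plin1, Cidec, Lipe and Pparg) ran from 38222.9 to 50184.8 normalized counts over the vector NE libraries and from 5928.7 to 7020.6 over the tSema4B NE libraries, so it was present in both and did not overlap. Most of this sum is Fabp4, at 34881.5 to 46022.3 and at 5038.2 to 6039.4. Each of the 6 was also lower with no overlap on its own. Of 5 brown adipocyte markers, Ucp1, Cidea, Ebf2 and Lhx8 were read in both groups, and Zic1 was at 0.593 to 4.70 normalized counts in vector NE and at 0 in tSema4B NE. Lhx8 overlapped, at 20.8 to 24.3 in vector NE and 6.43 to 31.7 in tSema4B NE. The summed level of 6 preadipocyte and fibroblast markers (Pdgfra, Pdgfrb, Dlk1, Thy1, Fap and Cd34) was higher, at 4093.1 to 4295.6 against 2439.0 to 2519.7. Dlk1 was the largest part of it. Thy1 overlapped, at 50.4, 59.3 and 71.4 in vector NE and 64.3, 53 and 78 in tSema4B NE. Markers of other cells were close to nothing: Ptprc, Adgre1, Tyrobp, Cldn5, Myod1, Myog and Ckm had no read in any of the 6 libraries, and the summed level of the macrophage, endothelial or muscle markers stayed at 24.6 or less in each library. In bulk RNA fewer adipocytes in the culture and less adipocyte RNA per cell cannot be told apart, and this holds for every adipocyte gene below.

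Among the transcription factors of adipocyte differentiation, more genes were downregulated than upregulated. Of 37 adipogenic transcription factors tested, 8 were downregulated and 1 upregulated, and their median log2 fold change was -0.36, where the median over all genes was -0.01 and 3.73% of all genes were downregulated. Pparg, the nuclear receptor at the head of the program and the target of rosiglitazone, was at 212, 250.1 and 187 in vector NE and at 74, 88.1 and 58.1 in tSema4B NE (log2 fold change -1.56, SE 0.187, adjusted p = 3.06e-06). Values are given below for the 3 vector NE libraries against the 3 tSema4B NE libraries. Cebpa, the C/EBP factor that maintains the mature state together with PPARγ, was at 193, 325 and 174 against 61.1, 52.1 and 59.5 (log2 fold change -1.93, SE 0.239, adjusted p = 4.49e-06). Ebf2, which marks brown precursors and opens brown fat enhancers, was at 47, 40.9 and 53 against 4.29, 14.2 and 6.61 (log2 fold change -2.49, SE 0.436, adjusted p = 2.67e-04). None of these overlapped between groups. Zfp521, a zinc finger protein known to hold back adipogenesis, was the upregulated one, at 60.5, 43.9 and 49.1 against 95.4, 120.2 and 118 (log2 fold change 1.11, SE 0.291, adjusted p = 0.00856), and it passed the fold threshold only narrowly, with 0.99 when the pseudocount was 10.

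Genes that bring fatty acids into the cell and hold them in droplets gave some of the best-measured differences. Of 31 tested, 15 were downregulated (48.4%, with 3.73% of all genes) and none was upregulated (with 2.03% of all genes). Their median log2 fold change was -0.74. Fabp4, the cytosolic fatty acid carrier of adipocytes and one of the most abundant transcripts here, was at 34882, 46022 and 41790.3 in vector NE and 6039, 5476 and 5038 in tSema4B NE (log2 fold change -2.88, SE 0.131, adjusted p = 7.19e-13), a 7.41-fold lower mean. Cd36, the fatty acid transporter of the plasma membrane, was at 7443, 6470.0 and 7903 against 1292, 1488 and 1291 (log2 fold change -2.42, SE 0.0987, adjusted p = 3.16e-13). Both genes were far apart between groups and close within them. Angptl4, a secreted inhibitor of lipoprotein lipase, was at 1353, 1079.9 and 1205 against 261, 260.4 and 188 (log2 fold change -2.37, SE 0.13, adjusted p = 1.69e-11). Plin1, which coats the droplet and gates lipase access, was at 248, 308 and 177 against 30, 78.6 and 60.8 (log2 fold change -2.16, SE 0.286, adjusted p = 1.02e-05). The lowest of the 3 vector values of Plin1 was 177 and the highest tSema4B value was 78.6. Lpl itself, the lipase that frees fatty acids from lipoproteins, was less far apart, at 8274, 8779.7 and 8012 against 3846, 4248 and 3566 (log2 fold change -1.11, SE 0.0799, adjusted p = 1.30e-09).

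Plin1 and Steap4, a metalloreductase described further below, are shown here with the bases before their RefSeq transcription start. They are examples of downregulated genes that hold the core of the C/EBP consensus, spelled TTGCNNAA and searched on both strands. They were chosen after the matches were seen. The sequences are from RefSeq on GRCm38.p6, 250 bases up to the listed start, in the direction of the gene and with matches in capitals. Plin1 lies on the minus strand at chr7:79732777-79733026 and holds 2 matches that begin 187 and 58 bases before the start, and Steap4 lies on the plus strand at chr5:7960222-7960471 with 1 match that begins 87 bases before it. Among all 27025 genes with such a sequence, 9.55% hold a match, and of the 81 named genes with one 10 do (12.3%), 4 of 52 downregulated, 2 of 19 upregulated and 4 of 10 others. Adipoq, Cd36, Retn and Pnpla2 hold none. Distances count from the RefSeq start. The GENCODE annotation starts Plin1 at 79732903, inside the printed bases, so by it the match at 58 lies within the gene. For Steap4 the GENCODE start of 7960457 also lies inside the printed bases, after the match. A match is a description of the letters only.
Plin1: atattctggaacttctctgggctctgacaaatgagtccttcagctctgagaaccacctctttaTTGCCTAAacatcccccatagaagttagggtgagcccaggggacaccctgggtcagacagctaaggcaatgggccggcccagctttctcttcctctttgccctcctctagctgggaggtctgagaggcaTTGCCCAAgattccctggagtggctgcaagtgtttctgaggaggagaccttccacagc
Steap4: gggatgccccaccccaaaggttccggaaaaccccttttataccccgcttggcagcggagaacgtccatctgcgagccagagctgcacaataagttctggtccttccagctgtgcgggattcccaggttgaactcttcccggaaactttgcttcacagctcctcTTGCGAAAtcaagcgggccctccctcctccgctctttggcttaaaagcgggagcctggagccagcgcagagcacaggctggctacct

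Lipolysis, the step that NE switches on, was described by 30 tested genes, with a median log2 fold change of -0.88. Of them 13 were downregulated (43.3%, with 3.73% of all genes) and none upregulated (with 2.03% of all genes). Pnpla2, which encodes the first lipase of the cascade (ATGL), was at 1864, 1739 and 1769 in vector NE and at 644, 659 and 515 in tSema4B NE (log2 fold change -1.57, SE 0.112, adjusted p = 1.13e-09). Its coactivator Abhd5 was at 534, 509 and 465 against 170.5, 202 and 229.9 (log2 fold change -1.33, SE 0.142, adjusted p = 6.60e-07). Its inhibitor G0s2 was at 729, 927 and 551 against 139, 225 and 164 (log2 fold change -2.05, SE 0.215, adjusted p = 4.75e-07). The lipase and both of its regulators, of opposite action, were thus lower in every tSema4B library. Lipe, the hormone-sensitive lipase that acts next, was at 390.4, 387 and 318 against 189, 156 and 177 (log2 fold change -1.06, SE 0.159, adjusted p = 4.57e-05). It lay near the fold threshold, and without tSema4B NE replicate 2 its log2 fold change was -0.99. Adrb3, the β3-adrenergic receptor through which NE acts on fat, was at 67.2, 101 and 76.6 against 7.51, 7.57 and 11.9 (log2 fold change -3.06, SE 0.359, adjusted p = 2.30e-06), a 9.09-fold lower mean that rests on 7 to 9 reads per tSema4B library.

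**Figure D2:**
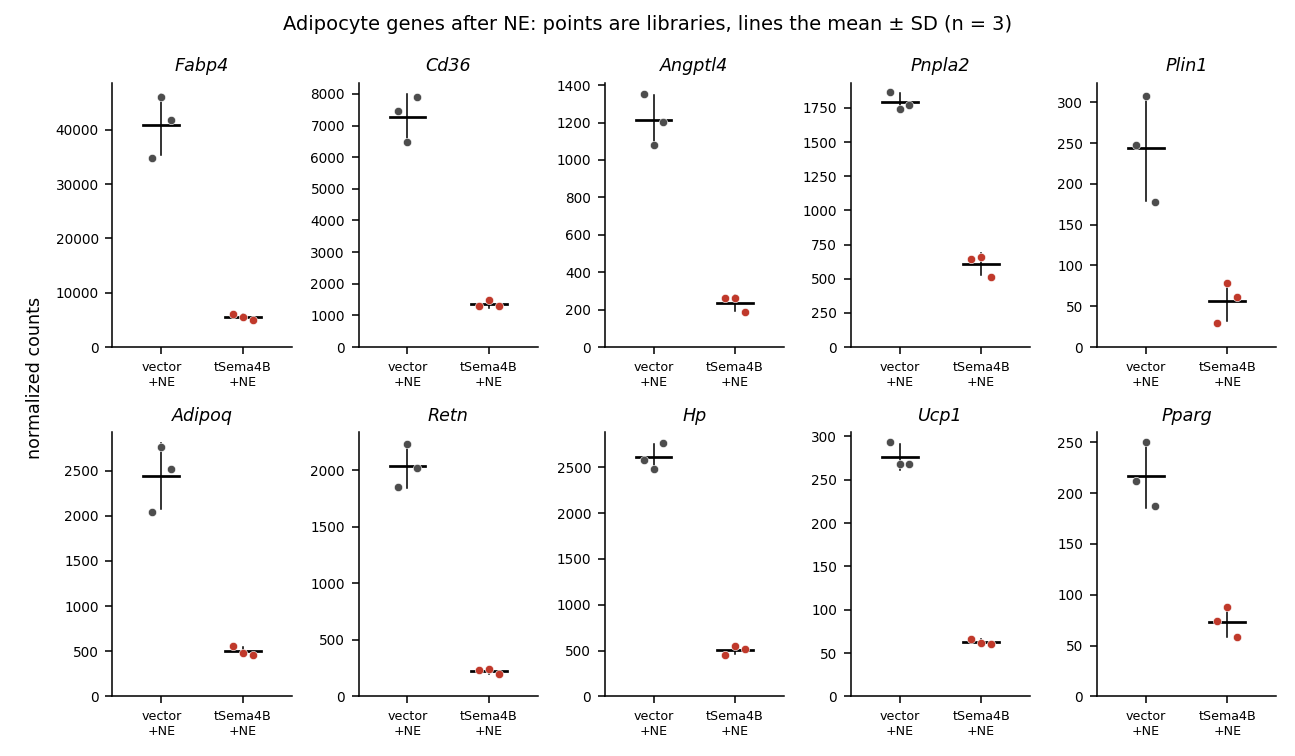
Normalized counts (linear axes from 0) of 10 adipocyte genes in the 3 vector NE and 3 tSema4B NE libraries, with 1 point per library and lines for the mean ± SD. Each of the 10 genes is lower in tSema4B NE with no overlap, from Retn at a log2 fold change of -3.18 to Pparg at -1.56.

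Among secreted products of adipocytes, more genes were downregulated than upregulated. Of 36 adipokines and other secreted proteins tested, 15 were downregulated (41.7%, with 3.73% of all genes) and 1 was upregulated (2.78%, with 2.03% of all genes). By adjusted p alone 17 were lower and 4 higher, where 11.2% and 9.79% of all genes were. The median log2 fold change was -0.90. Adipoq, which encodes adiponectin, was at 2047, 2763 and 2519 in vector NE and at 553, 477 and 462 in tSema4B NE (log2 fold change -2.29, SE 0.112, adjusted p = 2.72e-12). Retn, which encodes resistin, was at 1854, 2232 and 2016 against 237, 239 and 196 (log2 fold change -3.18, SE 0.203, adjusted p = 1.78e-10), a 9.09-fold lower mean. Hp, which encodes the haemoglobin scavenger haptoglobin, was at 2585, 2479 and 2766 against 456, 544 and 514 (log2 fold change -2.37, SE 0.107, adjusted p = 7.19e-13), and Lrg1, a secreted leucine-rich glycoprotein, was at 860.0, 820.3 and 763 against 143, 184 and 166 (log2 fold change -2.31, SE 0.238, adjusted p = 3.69e-07). All 4 differed with no overlap. Lep, which encodes leptin, was listed at 0 in all 6 NE-treated libraries.

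Of 25 brown fat and thermogenic genes tested, 10 were downregulated and none upregulated, where 3.73% and 2.03% of all genes were. Their median log2 fold change was -0.63. Of the downregulated ones Cidea, Adrb3, Ebf2, Gk and Pdk4 are also counted in other lists. Ucp1, the uncoupling protein, was at 293, 268 and 268 in vector NE and at 66.5, 61.5 and 60.8 in tSema4B NE (log2 fold change -2.12, SE 0.359, adjusted p = 1.89e-04), a 4.39-fold lower mean with tight values in both groups. Cidea, a droplet protein typical of brown fat, was at 49, 46.8 and 58.3 against 8.58, 11.4 and 7.93 (log2 fold change -2.36, SE 0.376, adjusted p = 9.46e-05). Cox7a1, the heart and brown fat form of a cytochrome c oxidase subunit, was at 26.2, 50.4 and 38.6 against 5.36, 0.947 and 0 (log2 fold change -4.04, SE 0.705, adjusted p = 2.60e-04), on 5 reads or fewer in each tSema4B library, with -4.77 without tSema4B NE replicate 1 and -3.44 without tSema4B NE replicate 3. Gk, glycerol kinase, which lets thermogenic fat reuse glycerol, was at 994, 808 and 891 against 271, 387 and 369 (log2 fold change -1.40, SE 0.178, adjusted p = 6.20e-06), and Pdk4, the kinase that shuts off pyruvate dehydrogenase when fat is burned, was at 1783, 1356 and 1950.4 against 609, 655 and 654 (log2 fold change -1.39, SE 0.111, adjusted p = 7.69e-09). Ppargc1a, the coactivator of mitochondrial biogenesis, was low and overlapped between groups, at 11.4, 10.7 and 18.3 against 29, 14.2 and 11.9 (log2 fold change 0.36, adjusted p = 0.682), and without tSema4B NE replicate 1 its log2 fold change was -0.01. Dio2, the deiodinase that makes active thyroid hormone in brown fat, was listed at 0 in all 12 libraries.

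All 8 mitochondrially encoded protein genes tested lay below the vector libraries with no overlap and passed the adjusted p, 2 of them past the fold threshold, with a median log2 fold change of -0.91. For comparison, 2379 of all 11998 genes lay wholly below, 11.2% were lower by adjusted p and 3.73% were downregulated. Not tested were mt-Atp6, mt-Atp8, mt-Co2, mt-Co3 and mt-Nd4l, which had at most 1 read in any NE-treated library. The mitochondrial large ribosomal RNA mt-Rnr2 was at 320029, 344726 and 333817 in vector NE and at 124234, 131359 and 125713 in tSema4B NE (log2 fold change -1.39, SE 0.0627, adjusted p = 7.19e-13). The small ribosomal RNA mt-Rnr1 was at 31498, 35809 and 28899 against 10776, 10603 and 9914 (log2 fold change -1.62, SE 0.0888, adjusted p = 1.69e-11), which under quantile normalization was -0.93 and no longer called. mt-Nd2, a subunit of complex I, was at 2998, 2978 and 3455 against 1318, 1419 and 1468 (log2 fold change -1.16, SE 0.0787, adjusted p = 5.04e-10). mt-Nd1, another subunit, was at 35453, 34501 and 38286 against 16386, 18684 and 18149.5 (log2 fold change -1.02, SE 0.0582, adjusted p = 2.97e-11), just past the fold threshold, and fell short of it at -0.98 without vector NE replicate 3 and at -0.97 without tSema4B NE replicate 1, and under quantile normalization it was at 0.02. Of 4 mitochondrial ribosomal and transfer RNAs tested 3 were downregulated, with a median of -1.50, while mt-Tp, the transfer RNA of proline, had a mean of 11.2 in vector NE and 12.2 in tSema4B NE. The third downregulated one was mt-Tq, the transfer RNA of glutamine, at 12.8, 19.6 and 17.7 against 2.14, 4.73 and 2.64 (log2 fold change -2.11, adjusted p = 0.0161). The call of mt-Tq was lost without vector NE replicate 2 (adjusted p = 0.0736) and without vector NE replicate 3 (adjusted p = 0.0642).

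Of 87 nuclear genes of the respiratory chain tested, 86 had a lower mean, 72 lay below the vector libraries with no overlap, 63 were lower by adjusted p and 12 were downregulated (13.8%), with a median log2 fold change of -0.61. Over all 11998 genes 2379 lay wholly below, 11.2% were lower by adjusted p and 3.73% were downregulated. Ndufc2, a small subunit of complex I, was at 509, 638 and 558 in vector NE and at 241, 207 and 221 in tSema4B NE (log2 fold change -1.34, SE 0.121, adjusted p = 5.50e-08), and Cox8a, a subunit of complex IV, was at 1359, 1765 and 1501 against 876, 642 and 604 (log2 fold change -1.13, SE 0.136, adjusted p = 3.12e-06). Of 79 mitochondrial ribosomal proteins 29 were lower by adjusted p, where 11.2% of all genes were, and none higher, with a median of -0.47. Those past the fold threshold were 4 (5.06%), near the 3.73% of all genes. Of 33 genes of pyruvate entry and the tricarboxylic acid cycle 6 were downregulated and none upregulated, with a median of -0.54. Dlat, the acetyltransferase of the pyruvate dehydrogenase complex, was at 703, 627 and 671 against 249, 324 and 219 (log2 fold change -1.35, SE 0.13, adjusted p = 1.50e-07), and Pcx, pyruvate carboxylase, was at 986, 1054 and 889 against 295, 452 and 388 (log2 fold change -1.38, SE 0.124, adjusted p = 5.09e-08). Of 44 fatty acid oxidation genes 8 were downregulated, with a median of -0.46, among them Cat, the peroxisomal catalase, at 2802, 2393 and 2488 against 1123, 1179 and 1070.3 (log2 fold change -1.19, SE 0.0844, adjusted p = 1.11e-09). Of 37 mitochondrial carriers 2 were downregulated (5.41%, near the 3.73% of all genes) and none upregulated, with a median of -0.21. These were Slc25a15, the ornithine carrier, at 84, 70.5 and 91.7 against 16.1, 28.4 and 51.5 (log2 fold change -1.47, adjusted p = 0.00589), and Slc25a23, a carrier of ATP and phosphate, at 7.39, 16.6 and 17 against 2.14, 2.84 and 2.64, at least 4.09-fold lower against 3 reads per library. Cpt1b, the muscle and brown fat form of the carnitine transferase, was listed at 0 in all 6 NE-treated libraries, but it overlaps Gm44502 over 81.4% of its exon bases, where reads may not have been counted for either.

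**Figure D3:**
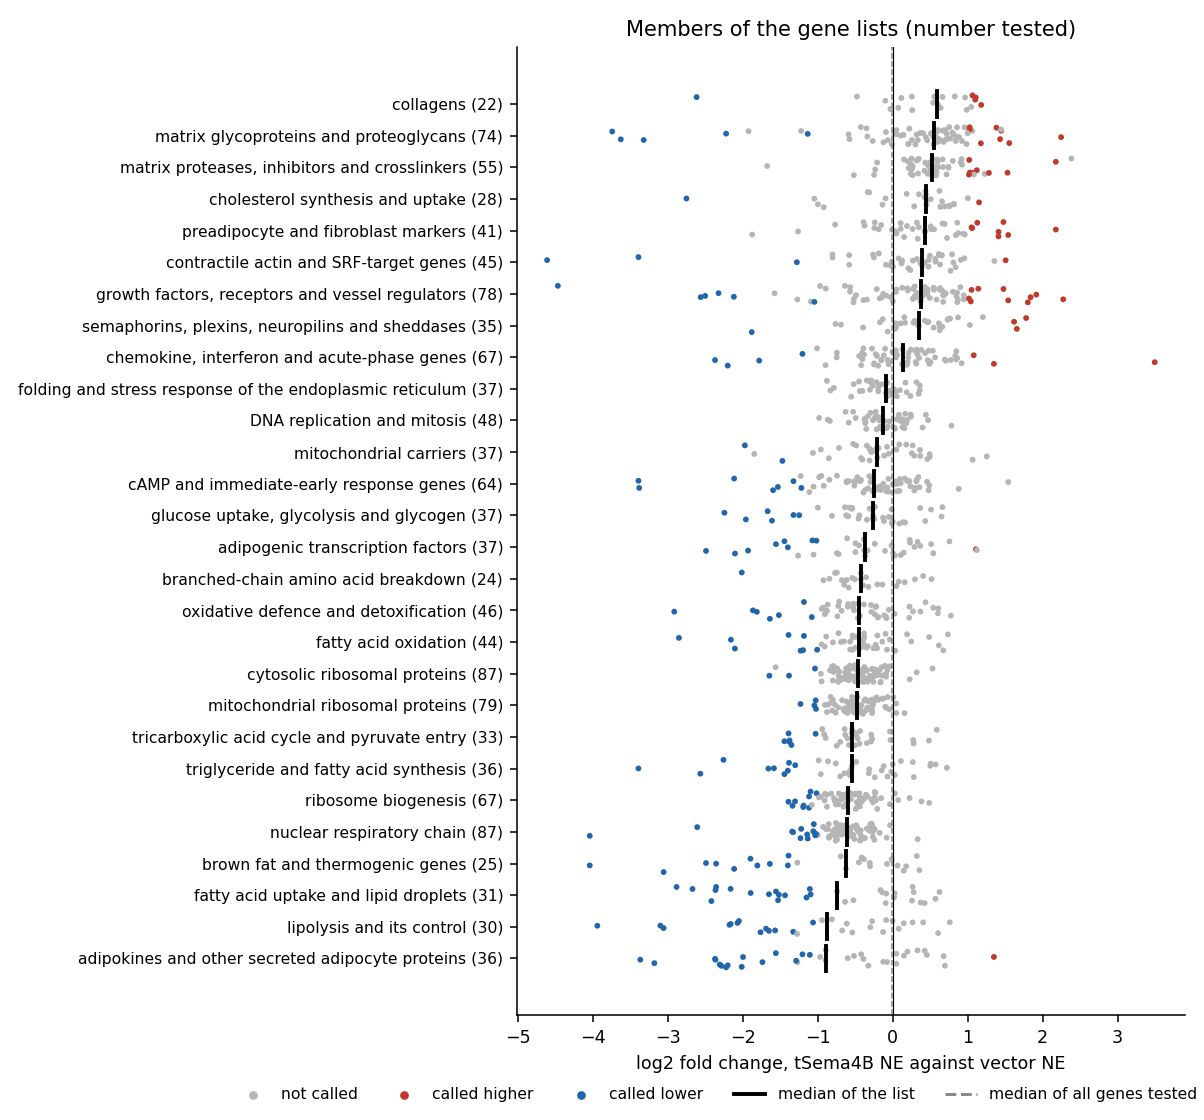
Log2 fold change of tSema4B NE against vector NE (horizontal axis) for each tested member of the 28 gene lists with at least 20 tested genes (1 point per gene, red called higher, blue called lower, grey not called, black bar the list median). Medians run from -0.90 for adipokines to 0.59 for collagens, around the median of all genes at -0.01 (dashed line). Some genes stand in several lists.

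In fat synthesis and glucose use every called gene was downregulated. Over all genes 3.73% were downregulated and 2.03% upregulated, so a list with no upregulated gene is near that share. Of 36 triglyceride and fatty acid synthesis genes 9 were downregulated (25%) and none upregulated, with a median log2 fold change of -0.55. Thrsp, a small nuclear regulator of lipogenic genes, was at 65.2, 58.7 and 79.9 in vector NE and at 9.65, 11.4 and 21.1 in tSema4B NE (log2 fold change -2.26, SE 0.311, adjusted p = 1.61e-05). Fasn, fatty acid synthase, overlapped, at 312, 340.2 and 318 against 324, 288 and 362 (log2 fold change -0.00, adjusted p = 1), and Scd1, the desaturase that makes oleate, was lower without passing the fold threshold, at 5645, 7115 and 5704 against 4459, 3910.4 and 4157 (log2 fold change -0.55, adjusted p = 6.79e-04). Of 37 genes of glucose uptake, glycolysis and glycogen 6 were downregulated (16.2%) and none upregulated, with a median of -0.27. Slc2a4, the insulin-responsive glucose transporter GLUT4, was at 58.5, 94.8 and 72 against 22.5, 42.6 and 13.2 (log2 fold change -1.61, SE 0.371, adjusted p = 0.00331). Pfkfb3 and Pfkfb1, which make the activator of phosphofructokinase, had log2 fold changes of -1.25 (adjusted p = 0.0028) and -1.67 (adjusted p = 5.05e-04). Of 24 genes of branched-chain amino acid breakdown 1 was downregulated (4.17%, near the 3.73% of all genes). This was Bckdhb, a subunit of the branched-chain ketoacid dehydrogenase, at 41.7, 80 and 85.8 against 5.36, 21.8 and 30.4 (log2 fold change -2.01, SE 0.447, adjusted p = 0.00247), with -1.32 without tSema4B NE replicate 1.

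In cholesterol synthesis and uptake 20 of 28 genes tested had a higher mean and 12 were higher by adjusted p, where 9.79% of all genes were, with a median log2 fold change of 0.45. Past the fold threshold 1 was upregulated (3.57%), near the 2.03% of all genes. Abcg1, which exports cholesterol from the cell, was the 1 downregulated member, at 174, 122 and 147 in vector NE and at 25.7, 18.9 and 18.5 in tSema4B NE (log2 fold change -2.75, SE 0.308, adjusted p = 1.24e-06). Cyp7b1, an oxysterol hydroxylase outside that list, was upregulated, at 62.5, 68.8 and 32.7 against 242, 266 and 176 (log2 fold change 2.09, SE 0.309, adjusted p = 4.02e-05). In the oxidative defence and detoxification list 7 of 46 were downregulated (15.2%, with 3.73% of all genes) and none upregulated, with a median of -0.45. Among the 7 were Mgst1, a membrane glutathione transferase, at 4791, 4905 and 5132 against 1786, 1837 and 1560.5 (log2 fold change -1.52, SE 0.0804, adjusted p = 1.18e-11), and Adh1, an alcohol dehydrogenase that oxidizes retinol, at 159, 187 and 151 against 24.7, 21.8 and 17.2 (log2 fold change -2.92, SE 0.221, adjusted p = 3.08e-09).

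Among genes for making ribosomes, lower values by adjusted p outnumbered higher ones. Of 67 ribosome biogenesis genes tested, 62 had a lower mean, 34 were lower by adjusted p (11.2% of all genes), 1 was higher and 9 were downregulated, with a median log2 fold change of -0.60. Nhp2, a core protein of the small nucleolar particles that modify ribosomal RNA, was at 488, 423 and 462 in vector NE and at 233, 191 and 177 in tSema4B NE (log2 fold change -1.20, SE 0.144, adjusted p = 3.17e-06). Nop56, a scaffold of the methylating particles, was at 506, 401 and 428 against 196, 219.7 and 196 (log2 fold change -1.12, SE 0.156, adjusted p = 1.86e-05). Small nucleolar RNA genes overlap annotated exons of Nop56. Taf1d, a factor of RNA polymerase I, was at 189, 210.4 and 228 against 78.3, 84.3 and 83.2 (log2 fold change -1.34, SE 0.213, adjusted p = 9.10e-05). In the vector line without NE, Nhp2 was at 186, 196 and 173 and Nop56 at 185, 253 and 164, and in the tSema4B line without NE they were at 145, 116 and 141 and 162, 138 and 153, so the high values were those of vector NE. The test of whether the difference depended on NE gave -0.73 for Nhp2 (adjusted p = 0.196) and -0.73 for Nop56 (adjusted p = 0.233), so limma did not call it, nor did edgeR (adjusted p = 0.158 for Nhp2 and 0.217 for Nop56), while DESeq2 called Nhp2 (adjusted p = 0.0332) and not Nop56 (adjusted p = 0.0757). Of 87 cytosolic ribosomal protein genes 84 had a lower mean, 36 were lower by adjusted p and 3 were downregulated (3.45%, no more than the 3.73% of all genes), with a median of -0.47, but these genes have many near-identical pseudogenes between which counting can split reads, and their single values are uncertain. The 3 were Rpl22l1 (log2 fold change -1.65, adjusted p = 1.42e-04), Rps4l, which the annotation lists as a transcribed processed pseudogene (log2 fold change -1.38, adjusted p = 0.00495), and Rps6 (log2 fold change -1.04, adjusted p = 0.0469). The call of Rps6 was lost without any 1 of the 6 libraries, with adjusted p-values from 0.0839 to 0.142, and with the replicate number as a block (adjusted p = 0.0578).

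Among extracellular matrix genes, more were upregulated than downregulated. Of 22 collagen genes 4 were upregulated and 1 downregulated, with a median log2 fold change of 0.59, where 2.03% of all genes were upregulated. Col1a1, which encodes a chain of fibrillar type I collagen, was at 5115, 4323 and 4543 in vector NE and at 10022, 9330.0 and 9811 in tSema4B NE (log2 fold change 1.06, SE 0.0695, adjusted p = 2.75e-10). Its partner chain Col1a2 was at 9714, 8722 and 9152 against 19534, 18666 and 20923 (log2 fold change 1.10, SE 0.0676, adjusted p = 1.14e-10), and Col3a1, of the type III fibril, was at 7311, 6005 and 6155 against 14265, 14257 and 15428 (log2 fold change 1.18, SE 0.0744, adjusted p = 1.66e-10). All 3 were higher in every tSema4B library. The summed preadipocyte and fibroblast markers given above were higher in the same libraries, and their part in the matrix genes was not tested. Col18a1, the basement membrane collagen that holds endostatin, was higher at an adjusted p of 2.36e-05 with a log2 fold change of 0.96, under the fold threshold, and reached 1.03 without vector NE replicate 3 and 1.07 without tSema4B NE replicate 2. Col11a1, a minor fibrillar collagen, was the downregulated one, at 25.5, 52.8 and 30.1 against 6.43, 1.89 and 7.93 (log2 fold change -2.62, SE 0.542, adjusted p = 0.00136).

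Of 74 matrix glycoproteins and proteoglycans 8 were upregulated (10.8%) and 5 downregulated (6.76%), where 2.03% and 3.73% of all genes were, with a median log2 fold change of 0.54 and 34 members higher by adjusted p. By adjusted p 9.79% of all genes were higher. Fbln1, an elastic fibre and basement membrane glycoprotein, was at 432, 334 and 349 in vector NE and at 1014, 992 and 986 in tSema4B NE (log2 fold change 1.43, SE 0.102, adjusted p = 1.13e-09), and Spon2, a secreted spondin, was at 329, 339.6 and 351 against 988, 764 and 925 (log2 fold change 1.38, SE 0.107, adjusted p = 4.35e-09). Fbln7, a related fibulin, was at 8.73, 13 and 17.7 against 56.8, 84.3 and 54.2 (log2 fold change 2.25, SE 0.372, adjusted p = 1.48e-04). Among the 5 downregulated, Spon1, another spondin, was at 34.9, 29.6 and 29.5 against 0, 1.89 and 10.6 (log2 fold change -3.32, SE 0.632, adjusted p = 6.14e-04), with -2.48 without tSema4B NE replicate 1 and -4.25 without tSema4B NE replicate 3. Efemp1, a fibulin, was at 32.3, 7.11 and 19.6 against 0, 0 and 1.32, at least 5.89-fold lower against a floor of 3 reads per library, and Srpx, a sushi-repeat protein, was at 10.1, 10.1 and 14.4 against 0, 0 and 0, at least 3.45-fold lower. The floor and the bounds cover counting error only. Srpx passed the filter through its 3 vector NE libraries alone, so its call is not independent of the filter. Of 55 matrix proteases, inhibitors and crosslinkers 8 were upregulated and none downregulated, with a median of 0.53. Fap, a serine protease of activated fibroblasts that also stands in the preadipocyte list, was at 35.6, 40.3 and 61.5 against 238, 142 and 254 (log2 fold change 2.17, SE 0.288, adjusted p = 1.04e-05), and Adamts2, which trims procollagens, was at 328, 238 and 276 against 647, 515 and 669 (log2 fold change 1.12, SE 0.152, adjusted p = 1.32e-05). Mmp3, stromelysin, was read in 1 vector and 2 tSema4B libraries, at 2.02, 0 and 0 against 31.1, 12.3 and 0, and was not called (log2 fold change 2.38, adjusted p = 0.134), although its log2 fold change was 1.34 without tSema4B NE replicate 1 and without tSema4B NE replicate 3 was 3.84 with an adjusted p of 0.00935, and edgeR (4.28, adjusted p = 0.00662) and DESeq2 (4.48, adjusted p = 0.00693) on whole reads called it.

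**Figure D4:**
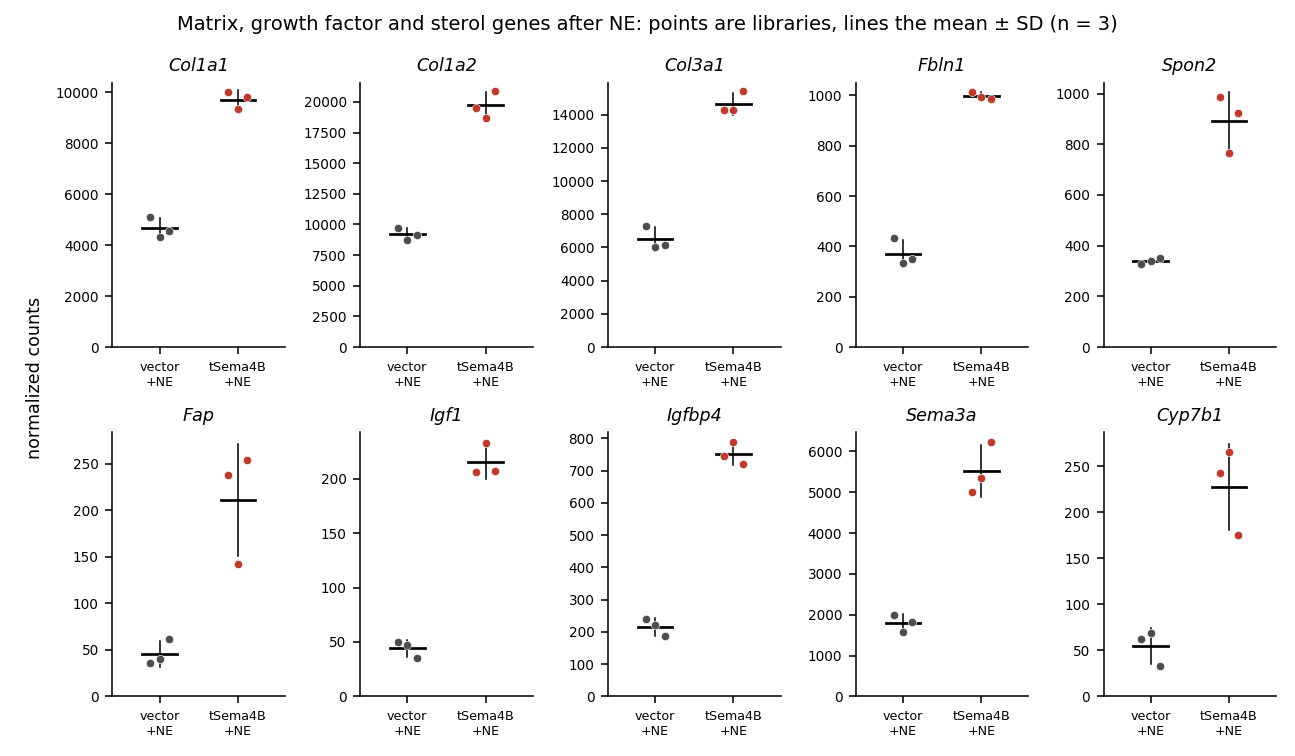
Normalized counts (linear axes from 0) of 10 upregulated genes of the matrix, growth factor, semaphorin and sterol groups in the 3 vector NE and 3 tSema4B NE libraries, with 1 point per library and lines for the mean ± SD. In each of the 10 genes all tSema4B NE points lie above all vector NE points, with log2 fold changes from 1.06 for Col1a1 to 2.27 for Igf1.

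Markers of preadipocytes and fibroblasts were higher in part. Of 41 tested 8 were upregulated (19.5%, with 2.03% of all genes) and none downregulated (with 3.73% of all genes). By adjusted p 22 were higher, where 9.79% of all genes were, and the median log2 fold change was 0.42. Pdgfrb, a growth factor receptor of mural and precursor cells, was at 421, 366 and 411 in vector NE and at 679, 721 and 959 in tSema4B NE (log2 fold change 0.96, adjusted p = 3.17e-06). The value missed the fold threshold and reached 1.06 without tSema4B NE replicate 1, 1.01 without tSema4B NE replicate 2 and 1.00 without vector NE replicate 1. Igfbp5, an insulin-like growth factor binding protein of stromal cells, was at 32.3, 35 and 23.6 against 83.6, 89 and 93.8 (log2 fold change 1.54, SE 0.256, adjusted p = 1.50e-04). None of 48 DNA replication and mitosis genes was called, where 2.03% of all genes were upregulated and 3.73% downregulated, and their median was -0.13. By adjusted p alone 5 were higher and 10 lower, where 9.79% and 11.2% of all genes were.

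Growth factors, their receptors and regulators of vessels had 10 of 78 upregulated (12.8%, with 2.03% of all genes), 6 downregulated (7.69%, with 3.73% of all genes), 24 higher and 7 lower by adjusted p and a median log2 fold change of 0.37. By adjusted p 9.79% of all genes were higher and 11.2% lower, so the share of lower members was not above that of all genes. Igf1, insulin-like growth factor 1, was at 49.7, 47.4 and 35.4 in vector NE and at 206, 233 and 207 in tSema4B NE (log2 fold change 2.27, SE 0.161, adjusted p = 1.05e-09), a 4.88-fold higher mean. Igfbp4, which binds it outside the cell, was at 241, 220.5 and 187 against 746, 789 and 721 (log2 fold change 1.80, SE 0.128, adjusted p = 1.11e-09). Both had values that were close within groups. Kitl, the ligand of the Kit receptor, was at 752, 677 and 762 against 360.3, 355 and 344 (log2 fold change -1.05, SE 0.116, adjusted p = 1.14e-06). Gdf10, a ligand of the TGFβ superfamily, was at 28.2, 36.2 and 37.3 against 0, 2.84 and 0, at least 10.15-fold lower against 3 reads per library. Its fitted log2 fold change of -4.47 was -5.12 without tSema4B NE replicate 2.

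Among 35 semaphorins, plexins, neuropilins and sheddases 3 were upregulated (8.57%, with 2.03% of all genes), 1 of them Sema4b, which the construct carries, and 1 was downregulated (2.86%, with 3.73% of all genes), with a median log2 fold change of 0.35. Sema3a, a secreted semaphorin that signals through neuropilin 1, was abundant, at 1998, 1571 and 1829.9 in vector NE and 4996, 5342 and 6234 in tSema4B NE (log2 fold change 1.62, SE 0.094, adjusted p = 4.22e-11), a 3.07-fold higher mean. These values rose and fell from library to library with those of Sema4b. Sema4b was at 81754, 65472 and 75571 in vector NE and at 208759.6, 223375 and 270694 in tSema4B NE (log2 fold change 1.65). Whether the Sema3a value is a measurement separate from Sema4b was not tested. Plxnb1, a receptor of class 4 semaphorins, was at 5.38, 16.6 and 9.82 against 45, 30.3 and 33 (log2 fold change 1.78, SE 0.431, adjusted p = 0.005). Both were higher in every tSema4B library. Nrp1, the neuropilin, was at 574, 584 and 609.5 against 1054, 917 and 1292, higher with no overlap but under the fold threshold (log2 fold change 0.87, adjusted p = 1.05e-05). Sema4a, a membrane semaphorin of the same class as Sema4b, was the downregulated member on few reads, at 23.5, 35 and 19 against 9.65, 13.3 and 1.32 (log2 fold change -1.88, adjusted p = 0.0157), and the call was lost without vector NE replicate 2 (adjusted p = 0.0832) and without tSema4B NE replicate 3 (log2 fold change -1.08, adjusted p = 0.0968).

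The contractile actin and serum response factor (SRF) target list had a median log2 fold change of 0.39 over its 45 tested genes, with 19 higher and 4 lower by adjusted p alone, and 1 was upregulated (2.22%) and 3 downregulated (6.67%), where 2.03% and 3.73% of all genes were. By adjusted p alone 9.79% of all genes were higher and 11.2% lower, so the share of lower members was not above that of all genes. Acta1, skeletal muscle actin, was at 29.6, 20.7 and 21 in vector NE and had no read in any tSema4B NE library, at least 7.11-fold lower against 3 reads per library (log2 fold change -4.61, adjusted p = 1.71e-04). Actg2, an actin of smooth muscle, was at 8.73, 8.3 and 11.8 and had no read either, at least 2.88-fold lower. Acta1 and Actg2 passed the filter through vector libraries alone, so their calls are not independent of it. Fhl1, a LIM protein of muscle, was at 204, 209.8 and 189 against 104, 67.2 and 79.3 (log2 fold change -1.28, SE 0.19, adjusted p = 4.15e-05). Of 4 muscle markers Myod1, Myog and Ckm had no read in these libraries, and Mylpf was at 3.93 to 8.89 in vector NE and 2.84 to 9.25 in tSema4B NE. The upregulated member was Synpo2, an actin-binding protein, at 14.1, 17.2 and 3.27 against 41.8, 20.8 and 27.7 (log2 fold change 1.51, adjusted p = 0.0256), and this call was lost without vector NE replicate 3 (log2 fold change 0.85, adjusted p = 0.188) and without tSema4B NE replicate 1 (1.25, adjusted p = 0.102) or 3 (1.53, adjusted p = 0.0501).

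The bases before the start of Acta1 are shown because the gene went from a measurable level to no read and its promoter holds the classical site of SRF, the CArG box. They are the 250 bases up to the RefSeq start on GRCm38.p6, on the minus strand at chr8:123894776-123895025, in the direction of the gene, with capitals for the CArG box that begins 73 bases before the start and for the TATA box, TATAAA, that begins 7 bases before it. No binding was measured at this site. The GENCODE annotation starts Acta1 at 123894751, downstream of the RefSeq start, so the distances given hold for RefSeq only. The CArG box, searched on both strands, is held by 1.4% of the 27025 genes with such a sequence and TATAAA, searched on the strand of the gene, by 8.12%.
Acta1: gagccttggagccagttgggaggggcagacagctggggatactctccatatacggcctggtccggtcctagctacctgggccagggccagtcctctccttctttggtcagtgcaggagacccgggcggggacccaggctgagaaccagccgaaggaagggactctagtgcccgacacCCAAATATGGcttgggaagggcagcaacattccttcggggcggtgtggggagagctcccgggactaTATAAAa

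Genes of the fast response to cAMP and of immediate-early signalling were described by 64 tested members, with a median log2 fold change of -0.25. Of them 7 were downregulated (10.9%, with 3.73% of all genes) and none upregulated (with 2.03% of all genes). Nr4a1, an orphan nuclear receptor that NE induces in fat, was at 83.3, 90.7 and 79.2 in vector NE and at 17.2, 28.4 and 41 in tSema4B NE (log2 fold change -1.60, SE 0.364, adjusted p = 0.00303). In the libraries without NE it was at 25, 41.2 and 15.2 in vector and 23.8, 37.1 and 32.9 in tSema4B cells, so the high values again were those of vector NE, and the interaction was -1.88 (adjusted p = 0.181). Id1, an inhibitor of basic helix-loop-helix factors, was at 340.0, 298 and 325 against 120.1, 128 and 87.2 (log2 fold change -1.53, SE 0.155, adjusted p = 2.81e-07). Sik2, a kinase that protein kinase A restrains, was at 189, 162 and 167 against 76.1, 69.1 and 75.3 (log2 fold change -1.22, SE 0.162, adjusted p = 1.08e-05), and it shares 15% of its exon bases with Ppp2r1b, whose mean was 611 in vector NE and 292 in tSema4B NE. Il6, the cytokine interleukin 6, overlapped at 39.6, 19 and 29.5 against 20.4, 20.8 and 22.5 (log2 fold change -0.39, adjusted p = 0.769).

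Chemokine, interferon and acute-phase genes had 3 of 67 upregulated (4.48%, with 2.03% of all genes), 4 downregulated (5.97%, with 3.73% of all genes), 12 higher and 6 lower by adjusted p and a median log2 fold change of 0.14. By adjusted p 9.79% of all genes were higher and 11.2% lower, so the share of lower members was not above that of all genes. Steap4, the metalloreductase whose promoter is printed above, was at 325, 265 and 318 in vector NE and at 110.5, 66.3 and 89.8 in tSema4B NE (log2 fold change -1.78, SE 0.215, adjusted p = 3.17e-06), and Orm1, the acute-phase protein orosomucoid, was at 70.5, 101 and 66.1 against 17.2, 13.3 and 18.5 (log2 fold change -2.20, SE 0.327, adjusted p = 4.15e-05). C1s1, a complement protease, was at 80, 67.6 and 75.9 against 145, 169 and 161 (log2 fold change 1.08, SE 0.198, adjusted p = 4.51e-04). Tlr6, a receptor for bacterial lipopeptides, had no read in vector NE and was at 6.43, 10.4 and 15.9 in tSema4B NE, at least 5.68-fold higher against 3 reads per library. It passed the filter through tSema4B libraries alone, so its call is not independent of the filter. Genes for protein folding in the endoplasmic reticulum held no call among 37 tested, with a median of -0.09. By adjusted p alone 2 were higher and 7 lower, where 9.79% and 11.2% of all genes were.

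Some of the farthest differences were in single genes, among called genes without overlap and with a higher group mean of at least 50. Fgg, the γ chain of fibrinogen and a liver acute-phase gene, was at 136, 142 and 219 in vector NE and at 11.8, 5.68 and 5.29 in tSema4B NE (log2 fold change -4.32, SE 0.651, adjusted p = 4.83e-05), while the libraries without NE were at 2.17, 1.68 and 5.45 and 0, 0 and 4.11. Its interaction was -3.18 with an adjusted p of 0.213. Tshr, the receptor of thyrotropin and a member of the lipolysis list, was at 82.6, 94.8 and 85.1 against 3.22, 12.3 and 18.5 (log2 fold change -3.10, SE 0.596, adjusted p = 6.78e-04), and Adcyap1r1, the receptor of the neuropeptide PACAP, was at 70.5, 44.5 and 89.7 against 2.14, 13.3 and 19.8 (log2 fold change -2.77, SE 0.508, adjusted p = 4.44e-04). B3galt2, a galactosyltransferase, was lowest of all, at 119.6, 159 and 118 against 0, 4.73 and 5.29 (log2 fold change -5.32, SE 0.736, adjusted p = 1.70e-05), and 7.31% of its exon bases are shared with Cdc73. Without tSema4B NE replicate 1 the log2 fold change was -2.46 for Tshr, -1.95 for Adcyap1r1 and -4.46 for B3galt2. On the other side, Gabra3, a subunit of the GABA-A receptor, was at 12.8, 7.11 and 10.5 against 108, 89 and 78 (log2 fold change 3.08, SE 0.431, adjusted p = 1.96e-05), Tram1l1, a protein of the translocon in the endoplasmic reticulum, was at 17.5, 13.6 and 20.3 against 50.4, 57.8 and 71.4 (log2 fold change 1.75, SE 0.314, adjusted p = 3.46e-04), and Gdpd5, a phosphodiesterase of glycerophospholipid turnover, was at 30.9, 10.1 and 11.1 against 53.6, 58.7 and 42.3 (log2 fold change 1.68, SE 0.384, adjusted p = 0.00307).

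Whether the difference between the lines depended on NE was tested by the interaction, the log2 fold change with NE minus that without. At an adjusted p no higher than 0.05, 3 genes (0.025%) had a positive interaction and 0 a negative one by limma, with 602 positive and 625 negative at an unadjusted p under 0.05. With libraries scaled to the same total, 442 of 1331 genes at that unadjusted p were negative. edgeR on whole reads gave 3 and 1, and DESeq2 gave 34 and 67, of which 6 are ribosome biogenesis genes, Nhp2 among them, and 21 cytosolic ribosomal proteins. Lpl was at 7693, 7479.7 and 6495 in vector and 1883, 1760.4 and 2063 in tSema4B cells without NE, so that the difference was -1.92 without NE and -1.11 with it (interaction 0.82, SE 0.113, adjusted p = 0.00399). Idh1, the cytosolic isocitrate dehydrogenase that makes NADPH, was at 2819, 2689.7 and 2797 in vector NE and 2228, 2243 and 2179 in tSema4B NE, a difference of -0.32 against -1.06 without NE (interaction 0.74, SE 0.12, adjusted p = 0.0216). Bnip3, a mitophagy receptor, was at 675, 631 and 714 against 490.1, 481 and 474, a difference of -0.48 against -1.64 (interaction 1.16, SE 0.201, adjusted p = 0.0371). In all 3 the tSema4B line was lower in both conditions and by less with NE. With reads thinned to the depth of the shallowest library, the interaction of Bnip3 was 1.09 and no longer called (adjusted p = 0.0601). Without vector NE replicate 1 the adjusted p was 0.061 for Idh1 and 0.127 for Bnip3, without vector NE replicate 2 it was 0.0546 and 0.0872, without vector NE replicate 3 it was 0.0804 and 0.0875 and without tSema4B NE replicate 2 it was 0.0648 and 0.1, and for Bnip3 it was 0.0698 without tSema4B NE replicate 3.

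**Figure D5:**
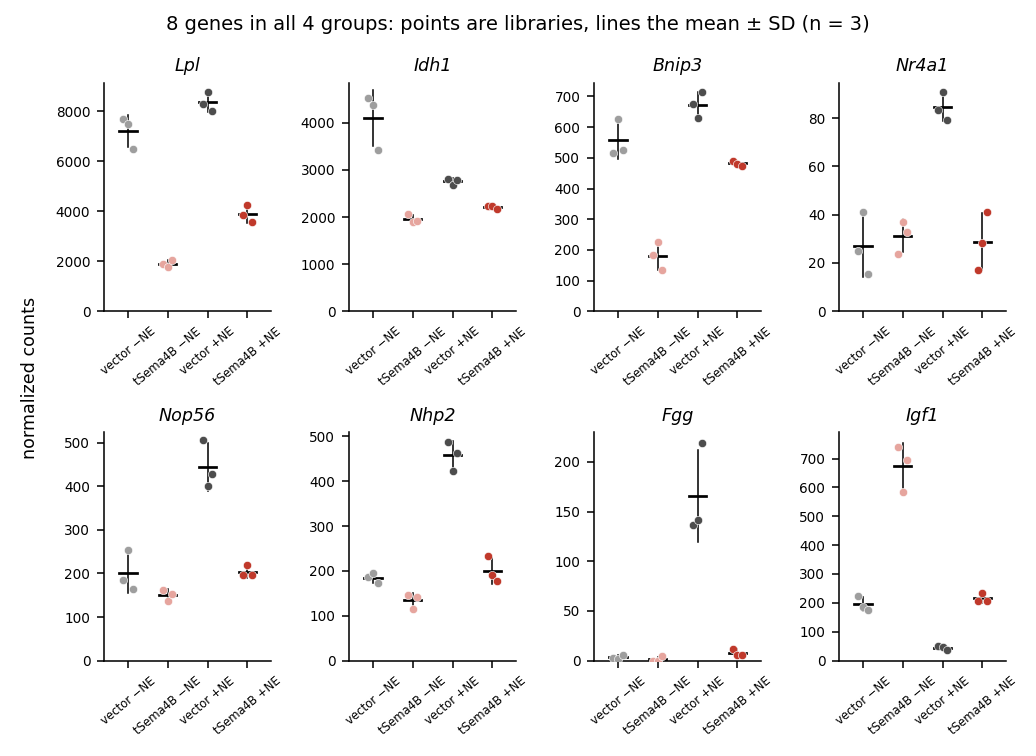
Normalized counts (linear axes from 0) of 8 genes in the 3 libraries of each of the 4 groups, where −NE is unstimulated and +NE is 2 μM NE for 6 h, with 1 point per library and lines for the mean ± SD. Lpl, Idh1 and Bnip3 have the positive interactions of 0.82, 0.74 and 1.16, while in Nr4a1, Nop56, Nhp2 and Fgg the vector NE libraries lie above the other 3 groups and limma called no interaction (DESeq2 called Nhp2 and gave no adjusted p for Nr4a1 and Fgg), and Igf1 is higher in tSema4B in both conditions.

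A few calls were marginal. Mitochondrial ribosomal proteins Mrpl12 (-1.02), Mrpl47 (-1.03) and Mrpl19 (-1.05), the electron transfer flavoprotein subunit Etfa (-1.01) and the complex I subunit Ndufb6 (-1.04) were downregulated with log2 fold changes that fell short of the threshold without a single library. Those values were -0.99 for Mrpl12 without vector NE replicate 2, -0.89 and -0.85 for Mrpl47 and Mrpl19 without tSema4B NE replicate 3, -0.93 for Mrpl19 without vector NE replicate 1, -0.98 for both Etfa and Ndufb6 without vector NE replicate 2, and -0.94 and -0.97 for them without tSema4B NE replicate 3. Mrpl19, Ndufb6 and Mrpl47 share 36.0%, 39.0% and 13.9% of their exon bases with a neighbouring gene. Adrb3, Bnip3, C1s1, Abhd5, Lipe, Mrpl12 and Xist share 24.9%, 22.3%, 18.4%, 16.0%, 15.6%, 13.1% and 11.0% with another annotated transcript, and reads on shared bases cannot be assigned without strand. The matrix proteoglycan Dcn (1.03), the protease inhibitor Serpine2 (1.03), the stromal marker Cd248 (1.06) and the growth factor Ptn (1.04) were upregulated as narrowly. Without vector NE replicate 3 Dcn was at 0.95 and Serpine2 at 0.99, and without tSema4B NE replicate 1 Dcn was at 0.94 and Ptn at 0.91. Ptn was at 0.97 without vector NE replicate 1, Cd248 at 0.98 without tSema4B NE replicate 3, and Serpine2 at 0.95 without vector NE replicate 2, 0.95 without tSema4B NE replicate 2 and 0.97 without tSema4B NE replicate 3. The BMP antagonist Chrdl1 (-2.50) had overlapping groups, at 49, 29.6 and 47.8 against 0, 9.47 and 38.3, and its adjusted p of 0.0239 became 0.0754, 0.078 and 0.139 without vector NE replicate 1 (-2.38), vector NE replicate 3 (-2.40) and tSema4B NE replicate 1 (-1.05). Without tSema4B NE replicate 3 Chrdl1 was at -3.70 and still called, and neither edgeR (-1.49, adjusted p = 0.0656) nor DESeq2 (-1.43, adjusted p = 0.274) called it.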

How the data were processed

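RNA of transduced brown adipocytes was made into 12 SMART-Seq2 libraries, which do not mark strand. Per the labels and the study's methods, the authors aligned reads to mm10 (GRCm38.p4) with STAR 2.7.9a, counted them per gene with HTSeq and divided them by DESeq2 size factors. The deposited values are this size-factor-normalized signal per gene. Which annotation was used, how strand was set and what was done with reads of several matches is not given in the sources used here. Dividing each library by its smallest step gave whole reads for 100% of values in every library, to a tolerance of 0.01, and these reads were used for depth and for the count models.

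Genes with at least 10 normalized counts in 3 libraries were kept. A gene low in 1 line could pass through the other line alone, and its call is then not independent of the filter. log2(normalized count + 1) of the 12 libraries was fitted with 4 group means in limma 3.58.1 (R 4.3.3, trended prior variance), after the script was tested on simulated data. Calls needed an adjusted p no higher than 0.05 and a log2 fold change that reached 1 in size, and the interaction needed the adjusted p alone. Positions are from GENCODE on GRCm38 and promoters from RefSeq, which held 81 of the 116 named genes. Alternatives were other pseudocounts, filters and scalings, thinned reads, edgeR 4.0.16, DESeq2 1.42.0, the 6 NE-treated libraries alone, a replicate block, each NE-treated library left out, and thresholds without or with the fold. The members of the comparison and the 34 gene lists were chosen with earlier results of these data known, so no count over a list is independent support. The lists also share members, such as Plin1, Gk and Pdk4, so their counts are not separate from each other. Named are 41 chosen genes, up to 3 called genes with the smallest adjusted p per list and direction, the 10 farthest called genes per direction whose groups do not overlap and whose higher group has a mean of at least 50, and the genes with an interaction, 116 in all, of which 113 passed the filter. Dio2, Lep and Cpt1b did not pass it, and the results of 2 named genes are not reported here. Genes singled out beside these are markers and overlapping neighbours.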

Additional observations from a re-analysis of the deposited data

Results flagged for a closer look

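3 genes stood out because the difference between the lines was not the same with and without NE, by the interaction term of the limma model with Benjamini-Hochberg adjustment over 11998 genes. Lpl had an interaction of 0.82 (adjusted p = 0.00399), Idh1 of 0.74 (adjusted p = 0.0216) and Bnip3 of 1.16 (adjusted p = 0.0371), each on the log2(normalized count + 1) scale. In each gene all tSema4B libraries lay below all vector libraries in both conditions, and the distance was smaller with NE.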

How the results depend on the processing

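The 244 upregulated and 447 downregulated genes came to 138 upregulated at a pseudocount of 10 and to 1175 and 1342 on the adjusted p alone, and stayed within 1.5 times under the other alternatives. Leaving out 1 NE-treated library gave 213 to 253 upregulated and 363 to 475 downregulated genes. Genes with a positive interaction numbered 0 with no filter, 34 by DESeq2, 1 with a log2 difference of 1 in addition, and 1 to 5 without 1 library. Genes with a negative interaction numbered 1 at a pseudocount of 10, 1 by edgeR, 67 by DESeq2 and 0 to 7 without 1 library, the highest without tSema4B NE replicate 1, where 5 were positive. The cause of these differences was not tested. Same-numbered libraries did not deviate together (r from -0.047 to 0.0282 over 18 pairs, across genes, which are not independent replicates), so the numbers were not taken as pairs, and with a replicate block 242 and 438 genes were called, with 3 positive and 0 negative interactions. Of 2016 values of named genes under alternatives, 1920 kept direction and call, 77 lost the call, 12 gained it and 7 reversed. Of 103 called named genes, 81 kept the call throughout. The reversals were Ppargc1a at -0.0102 without tSema4B NE replicate 1 (range without 1 library -0.0102 to 0.598), mt-Nd1 at 0.0217 under quantile normalization, and Fasn at 7.88e-05 at a pseudocount of 10, 0.0948 scaled to the same total, 0.0281 under quantile normalization, 0.0369 without vector NE replicate 2 and 0.0832 without tSema4B NE replicate 2 (range without 1 library -0.0818 to 0.0832). The interaction of Lpl lost its call with no filter (adjusted p = 0.139). Libraries of 1 line per construct and unequal depth limit what the comparison can show, and genes with few tSema4B reads carry the widest errors.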

Other observations

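The same contrast without NE was made on other libraries of both lines. Of the 447 genes downregulated after NE, 420 had a negative log2 fold change without NE as well and 187 were called there. Of the 244 upregulated genes, 229 had a positive log2 fold change without NE and 54 were called. In the contrast without NE, 325 of all 11998 genes were called lower and 133 higher. Ribosome genes differed between the conditions in their medians. The median log2 fold change of tSema4B against vector was -0.60 with NE and -0.11 without for 67 ribosome biogenesis genes, and -0.47 with NE and 0.13 without for 87 cytosolic ribosomal protein genes, where the median over all genes was -0.01 and -0.00. By limma and by edgeR 0 of these genes had an interaction that passed the adjusted p, with 17 and 18 of the biogenesis genes and 49 and 49 of the ribosomal protein genes negative at an unadjusted p under 0.05, while DESeq2 called 6 and 21 negative and 0 positive. Whether the medians differ was not tested.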
